A study of Mus musculus with 3 samples.

Results

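The miR-378 family is a set of microRNAs (miRNAs, small RNAs that guide the silencing of messenger RNAs) whose main strands are nearly identical, and the best studied comes from an intron of Ppargc1b. The family was taken as every row of the deposited table whose name starts with miR-378, which gave 5 of 1251 rows: both arms of miR-378a, and miR-378b, miR-378c and miR-378d. The values came from small RNA sequencing of epididymal (visceral) white fat of 3 mice of strain C57BL/6J, numbered 1, 3 and 9. From an age of 5 to 6 weeks the animals ate, for 11 weeks, a high-fat diet with 45% of its energy from fat, 20% from protein and 35% from carbohydrate, supplemented with 6.75% EPA (eicosapentaenoic acid, a fatty acid found in fish oil; the labels do not say whether by energy or weight), and they were fasted for 4 h before tissue was taken. These 3 libraries form 1 group, and no other diet was analysed here, so the values describe this fat and measure no effect of EPA. Apart from the titles and the stated number of samples per group, nothing says that the samples are separate animals, so every p-value refers to the variation among these 3 libraries, and that variation may be technical.

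Ppargc1b encodes a coactivator of nuclear receptors that raises genes of mitochondrial respiration and lipid metabolism, and miR-378a-3p and miR-378a-5p are the strands of a hairpin inside it. In mice the hairpin has been tied to lipid metabolism in liver and to adipocyte formation and brown fat mass, with carnitine O-acetyltransferase (Crat), the Mediator subunit Med13 and the phosphodiesterase Pde1b among described targets. The family is also known to be abundant in skeletal and heart muscle.

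Of the 4 hairpins, Mir378a alone lies on the same strand as a protein-coding host, Ppargc1b. On mouse assembly GRCm38 (mm10), Mir378b (chromosome 11, 88352773 to 88352864, plus strand) lies within an intron of 2 of the 7 annotated transcripts of Msi2. Mir378c (chromosome 14, 46954830 to 46954928, minus strand) lies within an intron of 4 of the 11 annotated transcripts of Samd4. Each is on the strand opposite to that gene. Mir378d (chromosome 10, 126710282 to 126710391, minus strand) lies in no annotated gene, 158 kb from the nearest coding gene, Atp23.

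Mature sequences were found for 3 of the 5 rows in a table from RefSeq on GRCm38.p6, and they are shown because members this alike can draw on the same reads. The 2 strands of miR-378a are not among them, so their likeness to these 3 members was not compared. Capitals mark the seed (bases 2 to 8), the part that selects targets.
miR-378b: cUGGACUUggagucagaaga
miR-378c: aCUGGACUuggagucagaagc
miR-378d: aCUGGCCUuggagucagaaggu
Counted from 1 at the 5′ end of miR-378c, miR-378b starts at position 2 and then runs alike for 19 bases until C21A, so that its seed is moved by 1 base. miR-378d matches miR-378c at 19 of 21 positions, with A6C inside the seed and C21G near the 3′ end, and is longer by 1 base. The 3 members therefore have 3 different seeds, although their bodies are nearly the same.

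The hairpins, with the mature sequence in capitals, show that the same stretch sits on different sides of its precursor.
Mir378b: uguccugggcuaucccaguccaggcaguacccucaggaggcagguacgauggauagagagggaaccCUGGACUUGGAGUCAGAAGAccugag
Mir378c: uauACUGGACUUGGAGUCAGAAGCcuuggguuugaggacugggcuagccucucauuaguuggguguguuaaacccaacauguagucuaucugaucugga
Mir378d: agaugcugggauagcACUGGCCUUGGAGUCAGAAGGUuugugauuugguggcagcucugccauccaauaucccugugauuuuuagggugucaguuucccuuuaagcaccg
In Mir378b the mature sequence covers bases 67 to 86 of 92, towards the 3′ end. In Mir378c it covers bases 4 to 24 of 99 and in Mir378d bases 16 to 37 of 110, both towards the 5′ end. The table gives 1 row for each of these hairpins, so arms could be compared for Mir378a alone.

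The family's signal in this fat was almost wholly miR-378a-3p. On the deposited scale, log2 of a normalized read count with a constant of 10 added, miR-378a-3p stood at 16.02 in mouse 1, 16.72 in mouse 3 and 15.47 in mouse 9, a mean of 16.07 ± 0.63 (SD, n = 3). As linear normalized counts above the floor these were 66274, 107616 and 45289. It ranked 10, 6 and 14 among all rows in mice 1, 3 and 9. In this bulk tissue, a change in the number of cells that hold a miRNA and a change in its amount per cell cannot be told apart.

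miR-378c, the member on chromosome 14, came second at 10.93, 11.75 and 10.65 in mice 1, 3 and 9 (mean 11.11 ± 0.57 log2 units, SD, n = 3). miR-378a-5p, the minor strand of the Ppargc1b hairpin, followed with 10.29, 10.99 and 9.42 in mice 1, 3 and 9 (mean 10.23 ± 0.79). These 2 members ranked between 57 and 104 among the rows of a mouse, well inside the 194 miRNAs that averaged 100 or more normalized counts over the floor and were tested.

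miR-378d, with its changed seed, was near the limit of the scale. It stood at 4.66 in mouse 1, 7.09 in mouse 3 and 4.52 in mouse 9, which is 15.3, 126 and 13.0 normalized counts above the floor. Its mean of 5.43 ± 1.45 log2 units (SD, n = 3) rests on mouse 3. miR-378b, the member whose seed is moved, stood at the floor of 3.32 in every mouse and was not detectable in these libraries; 888 of the 1251 rows did the same.

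**Figure D1:**
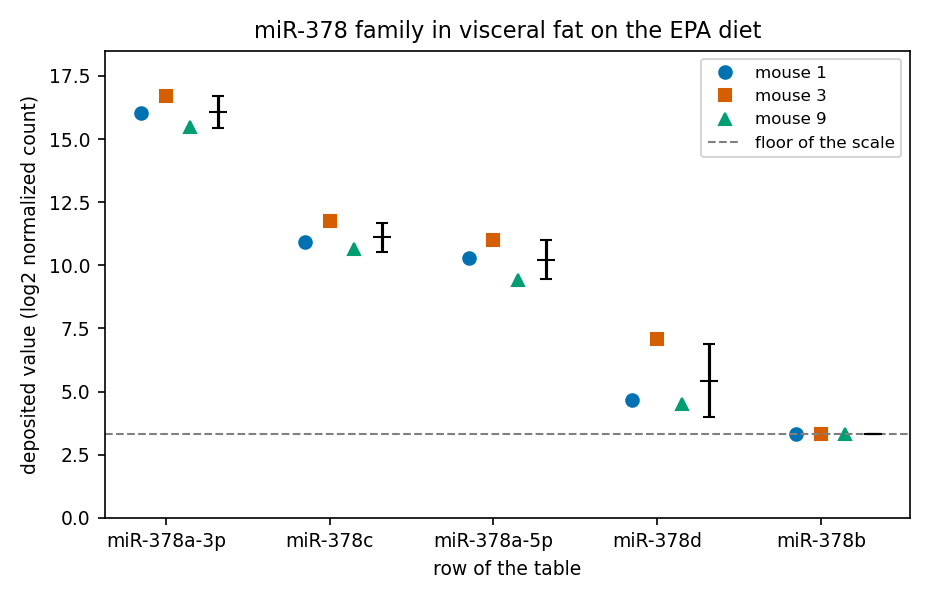
Each row of the miR-378 family is plotted on the deposited log2 scale, with 1 point per mouse and, to its right, the mean with SD over 3 mice; the dashed line is the floor of the scale at 3.32. miR-378a-3p lies between 15.47 and 16.72, far above the next member, mouse 3 is highest for the 4 members above the floor, and miR-378b lies on the floor.

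Within the family, miR-378a-3p made up 95.2% ± 0.167 of the summed linear values (SD, n = 3), miR-378c 3.06% ± 0.287, miR-378a-5p 1.66% ± 0.215 and miR-378d 0.0537% ± 0.0503. All 5 rows together held 2.89% of the summed value of all rows in mouse 1, 4.71% in mouse 3 and 1.98% in mouse 9, a mean of 3.19% ± 1.39. Within the family the share of miR-378a-3p was 95.4%, 95.1% and 95.2% in mice 1, 3 and 9, a share so near the whole that it leaves little room to move. The share of miR-378d was 0.0221%, 0.112% and 0.0272%, highest in mouse 3. Depth per library is unknown after the authors' normalization, and the libraries do not capture every sequence equally, so no counting interval is given and shares of different sequences are approximate.

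The order miR-378a-3p, miR-378c, miR-378a-5p, miR-378d held in all 3 mice. miR-378a-3p exceeded miR-378c by 5.09, 4.97 and 4.82 log2 units in mice 1, 3 and 9, a mean of 4.96 ± 0.14 (SD, n = 3). miR-378c exceeded miR-378a-5p by 0.64, 0.76 and 1.24, a mean of 0.88 ± 0.32. miR-378a-5p exceeded miR-378d by 5.63, 3.90 and 4.89, a mean of 4.81 ± 0.87. Each of the 6 pairwise differences was larger than its SD, and each gave p = 0.25 by a two-sided exact sign-flip permutation test (0.25 after Benjamini-Hochberg adjustment over the 6 pairs), the smallest value that 3 mice allow. Members alike in sequence can exchange reads, although the sequence of miR-378a-3p was not compared here. How the authors assigned reads that match more than 1 member is not stated in the sources used here. The values of miR-378c and miR-378d are therefore uncertain in relation to miR-378a-3p.

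Among other abundant miRNAs, miR-378a-3p held place 10 by its mean, and its order against close neighbours depended on the mouse. It stood below miR-143-3p, which promotes adipocyte differentiation, in all 3 mice, the difference of miR-378a-3p (mean 16.07) minus miR-143-3p (17.10) being -1.03 ± 0.49 log2 units (SD, n = 3). It stood above let-7f-5p in 3 of 3 mice, by 0.73 ± 0.51, and above miR-3107-5p in 3 of 3, by 0.94 ± 0.73. miR-3107-5p has the same values as the row of miR-486-5p.

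The neighbours between these did not keep their order. let-7c-5p (mean 16.65), let-7a-5p (16.34), miR-181a-5p (16.21) and the adipogenic miR-30a-5p (16.18) have higher means, yet miR-378a-3p exceeded each of them in mouse 3. miR-191-5p (15.74), miR-30d-5p (15.62) and miR-125a-5p (15.38) have lower means, and miR-378a-3p exceeded each of them in 2 of 3 mice. The mean differences from these 7 miRNAs, from -0.58 for let-7c-5p to 0.68 for miR-125a-5p, were smaller than the SD of the paired difference, so the place of miR-378a-3p between rank 6 and rank 13 lay within the spread between mice.

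Mir378a covers chromosome 18 from 61397835 to 61397900 on the minus strand of GRCm38, inside intron 1 of all 3 annotated transcripts of Ppargc1b (61298136 to 61400431, minus strand) and 2531 bases from the start of that gene. A predicted miRNA gene on the opposite strand, Gm25301 (61397813 to 61397925), spans the same bases, and the sources used here do not say whether the authors counted by strand. The hairpin kept its 3p strand far above its 5p strand. The log2 difference of miR-378a-5p minus miR-378a-3p was -5.73 in mouse 1, -5.73 in mouse 3 and -6.05 in mouse 9, a mean of -5.84 (SD 0.19, moderated SE 0.17, n = 3), or 57.1 times as much 3p as 5p on this scale. The 5p arm was higher in 0 of 3 mice, and limma's moderated one-sample test over 129 hairpins, two-sided, gave a Benjamini-Hochberg adjusted p of 2.95e-06. Nearly every hairpin passes this test: the 3p arm was called higher in 45.7% of the 129 and the 5p arm in 51.2%, so the call itself does not set Mir378a apart.

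Its size was ordinary too, with 72 of 129 hairpins (55.8%) having a smaller absolute ratio, around a median of 5.14. Both arms of Mir378a stood above the floor in every mouse, which held for 62 hairpins, 28 of them with the 3p arm higher. Among those 28, 7 leaned further to 3p. The neighbours in ratio were miR-148a at -5.93, where both arms were also measured, and miR-221 at -5.34. The others near it, miR-223 at -6.13, miR-328 at -6.10, miR-615 at -5.69 and miR-29c at -5.23, had 5p arms at the floor in some or all mice, so their ratios are set in part by the floor. The ratio of Mir378a varied less between mice than either of its arms: its SD of 0.19 compares with 0.63 for miR-378a-3p and 0.79 for miR-378a-5p, and with a median SD of 0.35 for the ratios of the 62 fully measured hairpins, of which 13 had a smaller SD.

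**Figure D2:**
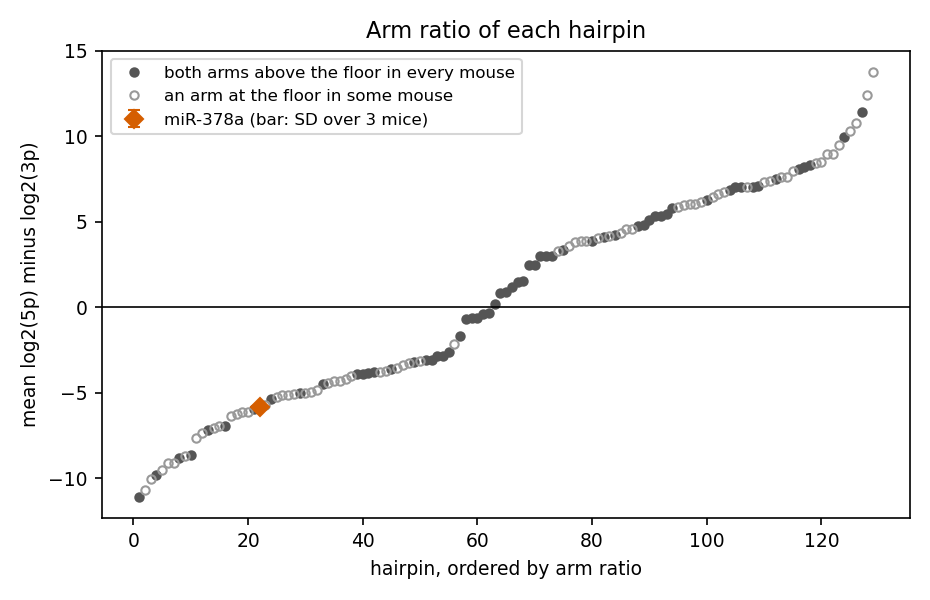
The mean log2 difference of 5p minus 3p (vertical axis) is plotted for 129 hairpins in ascending order, filled where both arms stood above the floor in every mouse. miR-378a, the diamond with its SD over 3 mice, lies at -5.84, at position 22 from the 3p-leaning end.

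The members differed between mice more than most miRNAs of this tissue, in a common direction. Over the 194 tested miRNAs the median SD between mice was 0.22 log2 units. miR-378a-5p with an SD of 0.79 ranked 13 from the top, miR-378a-3p with 0.63 ranked 21 and miR-378c with 0.57 ranked 22, above 93.3%, 89.2% and 88.7% of the tested miRNAs. From mouse 9, the lowest, to mouse 3, the highest, miR-378a-3p spanned 2.38 times on the linear scale, miR-378c 2.15 times and miR-378a-5p 3.00 times.

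No member passed a test of this spread. Against limma's trended prior, one-sided, 0 of 194 miRNAs (0%) passed after Benjamini-Hochberg adjustment and 7 (3.61%) had an unadjusted p below 0.05. miR-378a-3p had an unadjusted p of 0.0854, miR-378c of 0.0778 and miR-378a-5p of 0.0456, each 0.918 after adjustment by the same limma test. With limma's robust prior 2 of 194 (1.03%) passed, miR-133a-3p and miR-133b-3p, and 12 (6.19%) had an unadjusted p below 0.05, among them miR-378c at 0.0376 (adjusted p 0.719) and miR-378a-5p at 0.0255 (adjusted p 0.706), while miR-378a-3p gave 0.0746 (adjusted p 0.783). In simulated data of this size the trended test did not recover the miRNAs made variable, whereas the robust test recovered most of them. The trended count of 0 therefore cannot be read as an absence of differences between mice. The simulated spreads were set far above those of the miR-378 members, with equal noise in all other miRNAs. What the robust test recovered there does not show that it would find a spread like that of the family. How large a spread either test could detect in the real data was not tested.

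**Figure D3:**
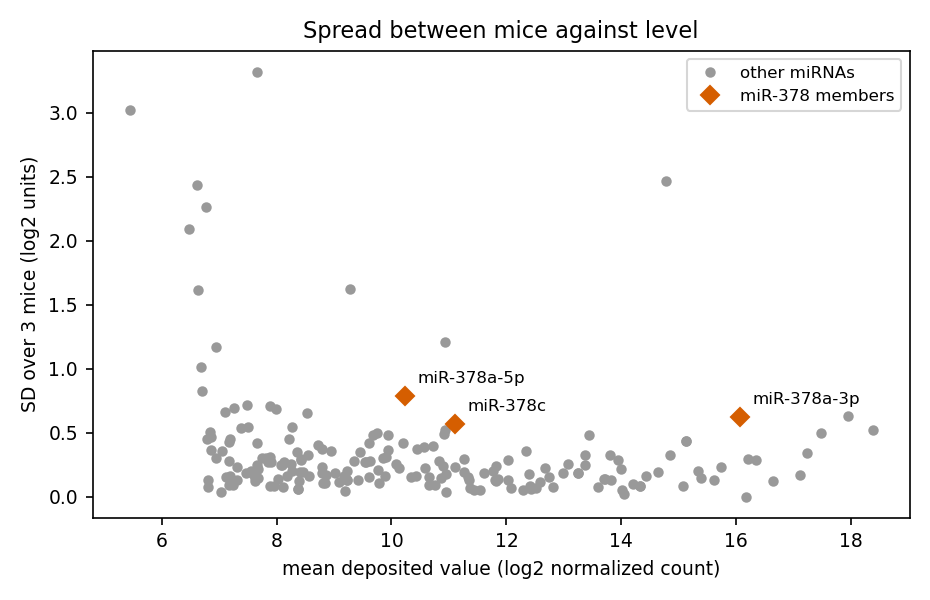
The SD over 3 mice (vertical axis, log2 units) is plotted against the mean deposited value (log2 normalized count) for 194 miRNAs, with the 3 tested miR-378 members as diamonds. The diamonds, at 0.57 to 0.79, lie above the median of 0.22 at very different levels, from 10.23 to 16.07.

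All 4 members above the floor were highest in mouse 3, then mouse 1, then mouse 9. Of these, miR-378d was not tested, and its values in mice 1 and 9 were both near the floor. Among the 194 tested miRNAs 24 showed this order (12.4%), the 3 tested members included. A further 38 (19.6%) had equal values in some mice and could show no order, which lowers the share of 12.4% used here and below. The deviations of miR-378a-3p from its own mean were -0.05, 0.65 and -0.60 log2 units in mice 1, 3 and 9. Those of miR-378c were -0.18, 0.64 and -0.46, and those of miR-378a-5p were 0.06, 0.76 and -0.82. Ranked by Euclidean distance between these 3 deviations, miR-378c came 2 of 193 miRNAs in nearness to miR-378a-3p (distance 0.19 log2 units) and miR-378a-5p came 3 (distance 0.26), against a median distance of 1.02. The 2 arms of a hairpin share a precursor, and miR-378c may share reads, so these are not independent measurements.

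The likeness rests on mouse 3. Without that mouse, over the same 193 miRNAs, miR-378c came 34 and miR-378a-5p 45, whereas without mouse 1 they came 3 and 6 and without mouse 9 they came 5 and 1. With 3 mice a profile has few degrees of freedom, and the distances are a description with no test.

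The other miRNAs nearest to miR-378a-3p were miR-5115 (distance 0.19), miR-107-3p (0.31), miR-193b-3p (0.34) and miR-872-5p (0.37). miR-107-3p, from an intron of the pantothenate kinase gene Pank1 and tied to insulin sensitivity in mice, stood at 9.80, 10.08 and 9.15 in mice 1, 3 and 9. miR-193b-3p, tied to brown adipocyte formation, stood at 11.12, 11.34 and 10.34. Both were highest in mouse 3 and lowest in mouse 9, as the family was, over a narrower span. The 3 nearest to miR-378c were miR-378a-3p, miR-5115 and the endothelial miR-126-3p (distance 0.38), which stood at 13.18, 13.74 and 13.18.

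**Figure D4:**
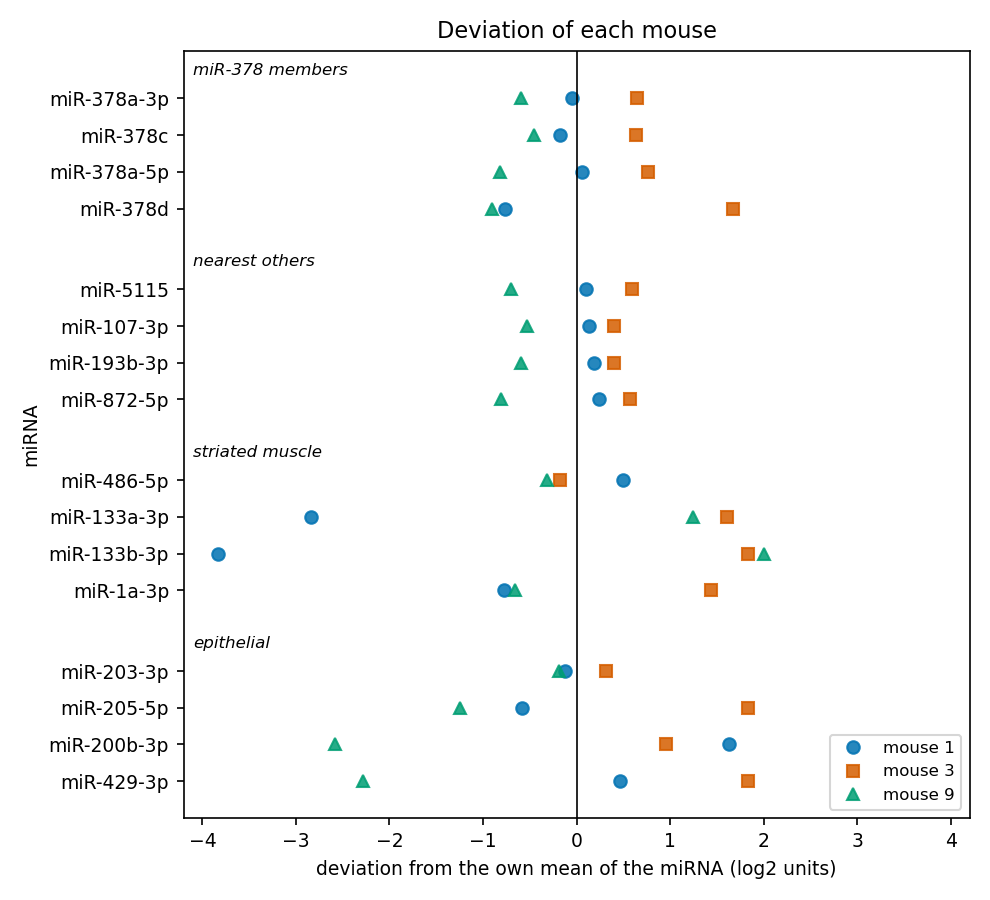
Deviations of each mouse from the mean of the same miRNA (horizontal axis, log2 units) are shown for the 4 miR-378 members above the floor, the 4 other miRNAs nearest to miR-378a-3p, and the 4 highest members of the striated muscle and the epithelial lists. The family has mouse 3 on the right and mouse 9 on the left, while miR-133a-3p and miR-133b-3p have mouse 1 alone on the left.

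Because miR-378 is abundant in muscle, muscle miRNAs are given beside this pattern. Of 8 striated muscle miRNAs 3 stood above the floor in every mouse, and the summed share of the list was 2.26%, 4.89% and 3.99% in mice 1, 3 and 9. Most of it in mouse 1 was miR-486-5p, which is also on the erythroid list and stood at 15.63, 14.95 and 14.81. Without it the share was 0.163%, 3.57% and 2.79% in mice 1, 3 and 9. miR-133a-3p stood at 11.94, 16.38 and 16.02 and miR-133b-3p at 3.83, 9.49 and 9.65, both lowest in mouse 1. miR-1a-3p stood at the floor in mouse 1 and at 5.53 and 3.44 in mice 3 and 9, while miR-208a-3p and miR-499-5p, both of myosin genes, were at the floor in all 3. None of the 3 tested muscle miRNAs had the mouse order of the family, which 12.4% of all tested miRNAs had. The part of muscle in the family's pattern was not tested.

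Epithelial miRNAs did share that order in part. The summed share of the 7 listed was 0.0692%, 0.157% and 0.0378% in mice 1, 3 and 9. Of the 4 that were tested, 3 ranked mouse 3, mouse 1, mouse 9, an order that 12.4% of all tested miRNAs had. A list of 4 is too small to weigh against that share. miR-203-3p stood at 9.42, 9.85 and 9.35, miR-205-5p at 8.70, 11.12 and 8.04 and miR-429-3p at 6.93, 8.29 and 4.19, while miR-200b-3p was highest in mouse 1 (8.40, 7.73 and 4.19). None of the 7 was at the floor in all mice. The part of epithelial cells in the family's pattern was not tested.

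Further marker lists had other patterns. The endothelial list summed to 0.848% to 1.07% of a mouse with all 4 members above the floor, led by miR-126-3p and miR-126-5p (12.67 ± 0.22, SD, n = 3). Its sum was highest in mouse 3, as were these 2 members. The other 2 were lowest in mouse 3: miR-221-3p stood at 11.75, 11.41 and 11.70 and miR-222-3p at 11.05, 10.74 and 11.05 in mice 1, 3 and 9. The leukocyte list summed to 0.433% to 0.480% with 5 of 7 above the floor in every mouse, led by miR-150-5p (12.81 ± 0.08), and miR-155-5p was at the floor. The erythroid list, led by miR-486-5p and miR-451a (12.33 ± 0.35), summed to 1.38% to 2.39% and was highest in mouse 1. The hepatocyte list, both strands of miR-122, was at the floor in every mouse. None of the tested members of the endothelial, leukocyte and erythroid lists had the order of the family, which 12.4% of all tested miRNAs had. Among them miR-126-3p and miR-222-3p had equal values in mice 1 and 9 and could not have had it. The erythroid miR-144-5p, too low to be tested, did have it, with 5.90, 6.08 and 4.52 in mice 1, 3 and 9. The part of these cells in the family's pattern was not tested.

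Set among miRNAs that promote brown or beige fat, miR-378a-3p was surpassed by miR-26a-5p alone. Of the 14 listed, 12 stood above the floor in every mouse, with a median over all 14 of 9.64 log2 units. The median was 3.32, the floor, over all 1251 rows, because 888 of them stood at the floor in every mouse. It was 6.86 over the 363 rows above the floor in at least 1 mouse and 9.71 over the 194 tested miRNAs. The highest were miR-26a-5p (17.95 ± 0.63, SD, n = 3), miR-30c-5p (14.63 ± 0.20), miR-30b-5p (11.85 ± 0.13) and miR-365-3p (11.54 ± 0.05). The mouse order of the family was found in 5 of the 11 tested, miR-30b-5p, miR-182-5p, miR-193b-3p, miR-203-3p and miR-196a-5p, where 12.4% of all tested miRNAs had it. This list is small and was chosen with earlier results of these data known, and its difference from that share was not tested. miR-203-3p is also on the epithelial list. miR-26a-5p went another way, with 18.67 in mouse 1 and 17.58 in mice 3 and 9.

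The list of miRNAs that restrain brown or beige fat had 9 of 10 members above the floor in every mouse and a median of 12.26, and none lay above miR-378a-3p. Its highest were miR-27b-3p (15.07 ± 0.08, SD, n = 3), miR-133a-3p (14.78 ± 2.47), let-7i-5p with 13.94 ± 0.28, and miR-125b-5p with 13.82 ± 0.13. Of the 9 tested, 1 had the order of the family, miR-125b-5p, near the 12.4% of all tested miRNAs.

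Among 11 adipogenesis-promoting miRNAs, all above the floor with a median of 13.70, miR-143-3p and miR-30a-5p had higher means than miR-378a-3p, and miR-30d-5p and miR-148a-3p (14.32 ± 0.08, SD, n = 3) came next. The order of the family was found in 2 of the 10 tested, miR-21a-5p and miR-107-3p, where 12.4% of all tested miRNAs had it. Of 12 adipogenesis-inhibiting miRNAs 10 stood above the floor, with a median of 12.23, and let-7c-5p and let-7a-5p lay above miR-378a-3p. miR-27b-3p and let-7b-5p (14.43 ± 0.16) completed the highest 4. None of the 9 tested had the order of the family. However, let-7c-5p, let-7a-5p, miR-27b-3p, let-7b-5p, miR-27a-3p and miR-222-3p had equal values in 2 mice. They could not have had any order of the mice, so the count says little about this list.

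The list of other miRNAs hosted by metabolic genes also holds miR-499-5p, of a myosin gene, and all of its members stood lower than miR-378a-3p. Of its 7 rows, 4 stood above the floor in every mouse. The highest was miR-103-3p, of the pantothenate kinase genes, with 13.56, 13.69 and 14.18 in mice 1, 3 and 9, followed by miR-335-3p (10.57 ± 0.39, SD, n = 3), miR-107-3p and miR-335-5p (6.71 ± 0.82), the strands of the Mest hairpin. miR-33-5p and miR-33-3p, of the sterol regulator gene Srebf2, were at the floor in all mice, as was miR-499-5p. miR-107-3p was the one of the 4 above the floor with the order of the family, which 12.4% of all tested miRNAs had. miR-103-3p was highest in mouse 9 and lowest in mouse 1.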

How the data were processed

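Total RNA of snap-frozen epididymal fat was made into Illumina small RNA libraries, per the labels' protocols. The authors deposited log2 values for 1251 miRNAs in 3 samples, per the file headers. They mapped reads to mm10 (per the submitters' processing notes), about 13.8 M a sample, in the Gunaratne pipeline, normalized counts to usable reads and added 40, per the design text of the series. The name of the aligner or the miRNA annotation is not given in the sources used here.

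These numbers differ from that text. The lowest is 3.32, which is 10 as a linear value, and 260 values fall from 10 to 40. After sorting, the columns hold nearly the same numbers (85 of the top 100 ranks, and 121 of the 316 above the floor in every mouse, are equal within 1e-06, and the largest difference at a rank is 0.34), so a difference between mice is close to one of ranks, totals say nothing of depth, and depth was not recovered.

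Linear values are the power of 2 minus 10. Arm ratios (129 hairpins, higher arm at a mean of at least 100) and spread (194 miRNAs, same filter) were tested with limma 3.58.1 in R 4.3.3, with a prior trend on level (prior degrees of freedom 2.06 for spread), Benjamini-Hochberg adjustment and a threshold of 0.05, after trial on simulated data. The rest used numpy 2.4.6 with scipy 1.17.1, pandas 2.3.3 for tables and matplotlib 3.10.9 for figures, in Python 3.11.15. The miRNAs named are all members, the 5 next above and below miR-378a-3p in mean, the 6 nearest to it and 3 nearest to miR-378c in profile, up to 4 highest of each list, and 3 hairpins on each side in arm ratio. Those named for having or lacking the family's mouse order, for standing at the floor or as muscle markers outside the top 4 were chosen after their values were seen. The members and lists (brown or beige promoting and restraining, adipogenesis promoting and inhibiting, metabolic hosts, striated muscle, leukocyte, endothelial, erythroid, epithelial, hepatocyte) were chosen with earlier results of these data known. Positions are from GENCODE M21 and sequences from RefSeq. Alternatives were 1 or 40 added before the log, other filters, other priors, median-ratio scaling, the floor kept, identical rows counted once and leaving out each mouse.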

Additional observations from a re-analysis of the deposited data

How the results depend on the processing

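The arm ratio of miR-378a kept its direction and stayed past the threshold in 9 of 9 alternatives, between -5.89 and -5.73, with limma adjusted p from 6.34e-07 to 0.00107. The level of miR-378a-3p (15.74 to 16.37) and the family share (2.43% to 3.80%) moved by less than the spread between mice in 6 of 6 alternatives each. The extremes came from leaving out 1 mouse. With 3 mice, leaving out 1 always moves a mean by less than the SD, and scaling a whole library cannot change a share. Those alternatives therefore could not have failed. Requiring a mean of at least 1000 cut the hairpins tested to 67 and the calls to 39 with the 5p arm higher and 28 with the 3p arm higher. The robust prior called 2 miRNAs as varying, against 0 in the other alternatives, and the cause was not tested. The adjusted p for the spread of miR-378a-3p stayed between 0.716 and 0.957. The 6 differences between members kept their direction in all 5 alternatives each, chosen after seeing the data. This outcome was fixed, because each pair had the same order in every mouse. Leaving out a mouse or adding another constant could not reverse it. Also chosen after seeing the data, the order of mice held for 4 of 4 members with median-ratio scaling. It held with 1 or 40 added as well, which cannot change it. Under these alternatives miR-378c came 1 or 2 and miR-378a-5p came 3 in nearness to miR-378a-3p. With 1 group, no pairing of samples between groups was possible, and the only pairing was of arms or members within a library. Differences of miR-378d are understated by the floor, and unknown depth limits what its values can show.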
